A study of Mus musculus with 11 samples.

Results

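The 51 genes described here are DNA repair genes, chosen by name because their products act in a known repair pathway. Earlier results of these data were known when they were chosen. All 51 were found as 1 row each among the 12932 genes of the table. They were split into 11 genes of homologous recombination, 8 of the Fanconi anaemia pathway, 9 of break sensing and checkpoint signalling, 3 of repair synthesis and ligation, 3 of mismatch repair, 8 of base excision and single-strand break repair, 5 of nucleotide excision repair and 4 of end joining. The question was whether the genes of homologous recombination and the Fanconi pathway (19 genes) differed between alveolar macrophage (AM) populations in the same way as those of mismatch, excision and end-joining repair (20 genes). The remaining 12 genes, of checkpoint signalling and of repair synthesis and ligation, serve several pathways and were put on neither side.

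The study asked what the retinoid X receptors RXRα and RXRβ, encoded by *Rxra* and *Rxrb*, do in mouse AMs. RNA-seq was made from 3 groups of sorted cells of 9-week-old mice: mature AMs (mAMs, CD11b- SiglecF+) of Rxrab fl/fl mice without Cre (control mAMs, n = 4), mAMs of Cd11c Cre+ Rxrab fl/fl mice (Cre+ mAMs, n = 4), and immature AMs (ImmAMs, CD11b+ SiglecF+) of Cd11c Cre+ Rxrab fl/fl mice (Cre+ ImmAMs, n = 3, replicates 2 to 4). Both *Rxra* and *Rxrb* were floxed in every mouse, the Cre acts in any CD11c+ cell and not only in AMs, and no ImmAMs of control mice were among the groups. In a comparison of Cre+ ImmAMs with control mAMs, genotype and cell population therefore cannot be told apart. Cre+ mAM replicate 4, which is not among the libraries in the study's table for the mAM comparison, stayed out of the fits. These used 10 libraries. Its value is given last among the Cre+ mAMs. The table holds counts per 1000000 reads (CPM), and the reads behind each library numbered 16659960 to 37873532. *Rxra* stood at 310.2 to 380 CPM in control mAMs, 334 to 419 CPM in Cre+ mAMs and 283 to 305 CPM in Cre+ ImmAMs, and *Rxrb* at 51.4 to 72.1, 39.3 to 55.3 and 31.9 to 35.2 CPM. A gene-wide count also takes in exons that are not excised, so these values do not check the deletion. The 11 AM marker genes summed to 20234 to 31134 CPM in all 11 libraries. Of the interstitial macrophage markers, *Cx3cr1*, *C1qa*, *C1qb* and *C1qc* summed to 0.643 to 1.23 CPM in control mAMs, 2.25 to 9.09 CPM in Cre+ mAMs and 205 to 223 CPM in Cre+ ImmAMs, and the 3 monocyte markers measured to 10.9 to 17.1, 12.4 to 25.2 and 83.2 to 91.1 CPM. The dendritic cell markers *Zbtb46* and *Clec9a* summed to 5.40 to 8.12 CPM in the mAM libraries and 20.7 to 24.1 CPM in Cre+ ImmAMs, and the 4 neutrophil markers measured to 6.38 to 14.2 and 17.997 to 25.8 CPM. The B cell markers *Ms4a1* and *Ighm* summed to 0.415 to 5.86 CPM in the mAM libraries and 5.61 to 6.51 CPM in Cre+ ImmAMs, with overlap. The other marker sums were higher in every ImmAM library than in any mAM library, except those of the AM markers, and their part in the results below was not tested. In such bulk samples, fewer cells of a kind and less RNA per cell cannot be told apart.

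Cells repair DNA by several routes that differ in when they can work. Homologous recombination copies the lost sequence from the sister chromatid, with BRCA1 and BARD1 preparing the break and BRCA2, brought in by PALB2, loading the recombinase. It therefore belongs to the S and G2 phases of dividing cells, and the Fanconi proteins, which unhook crosslinks met by replication forks, share that timing. End joining by the Ku heterodimer (*Xrcc5* and *Xrcc6*) and excision repair of damaged bases or bulky lesions need no sister chromatid and run in resting cells too. AMs are long-lived and keep their number largely by dividing in the lung.

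In Cre+ ImmAMs, 32 of the 51 repair genes were lower and 3 higher than in control mAMs at an adjusted p under 0.05 (limma, Benjamini-Hochberg over all 12889 genes tested). Of all genes tested 25.3% were called lower, 22.8% higher and 48.1% in either direction. The fall was uneven. Of the 19 homologous recombination and Fanconi genes, 14 were called lower and 0 higher. Their median was −0.97 on the log2 scale. Of the 20 mismatch, excision and end-joining genes, 9 were called lower and 3 higher. Their median was −0.26, and that of all genes tested −0.0025. Within the 20, end joining was nearer to the 19, with 3 of 4 genes called lower (median −0.83), beside 5 of 8 Fanconi genes (median −0.57). Of 10 other end-joining genes measured, 2 were called lower. A log2 fold change below −2, which is more than 4-fold lower, was met by 9 of the 19 and by 2 of the 20, beside 3.37% of all genes tested. Over all 51 genes it was met by 13, and the 4 outside homologous recombination and the Fanconi pathway were *Chek1*, *Pole*, *Neil3* and *Ung*. Of these 13 genes, all but *Fancd2*, *Fanci* and *Pole* reached 1 CPM in fewer than 3 ImmAM libraries. These 10 passed the filter of 1 CPM in 3 libraries through the mAMs, where they are high, so the counts of falls over 4-fold are a description. All of them but *Chek1*, *Neil3* and *Ung* are homologous recombination or Fanconi genes. The counts called lower and the medians of the 19 and the 20 genes, in both ImmAM comparisons, include such genes and are a description too.

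**Figure D1:**
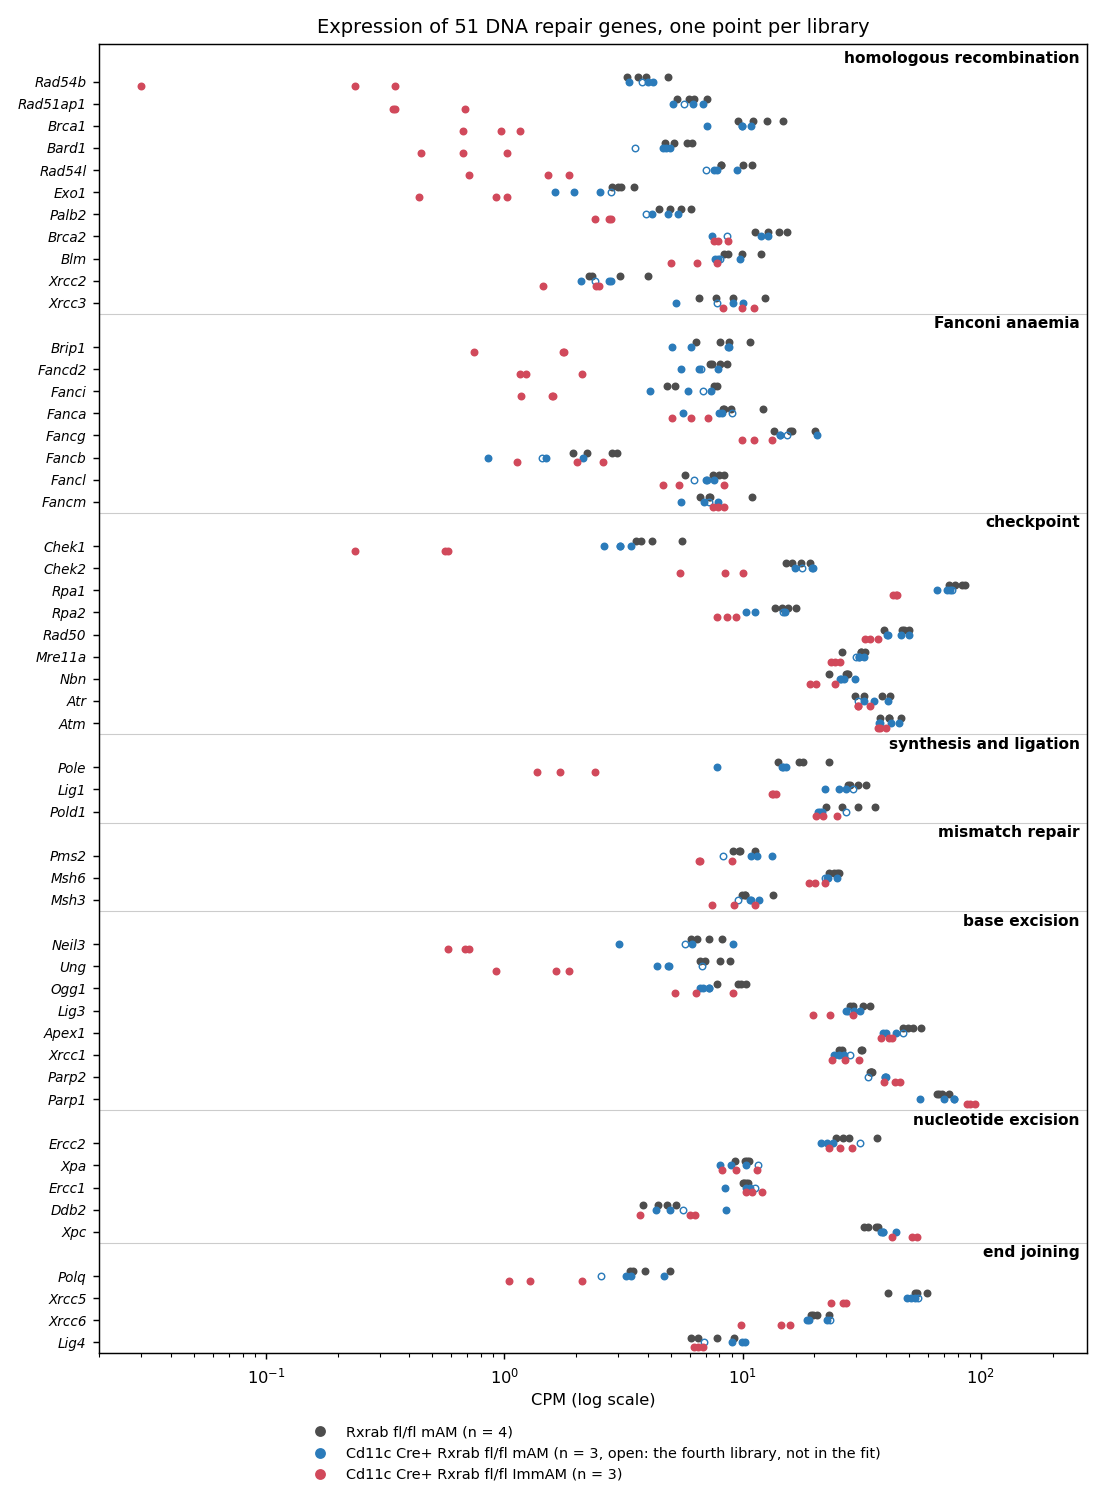
CPM of each of the 51 genes in each library on a log axis, grouped by pathway, with control mAMs in grey (n = 4), Cre+ mAMs in blue (n = 3, with the fourth library as an open circle) and Cre+ ImmAMs in red (n = 3). In 13 genes, among them *Rad54b*, *Brca1*, *Fancd2*, *Chek1*, *Pole* and *Neil3*, the red points stand far to the left of the others, while for most checkpoint, mismatch and excision repair genes the 3 colours lie close together.

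Homologous recombination genes held the largest falls. *Brca1* (ENSMUSG00000017146, chromosome 11, 101488764 to 101551955 on GRCm38), the tumour suppressor that directs resection of the broken end, was at 9.58, 12.7, 14.7 and 11.1 CPM in the 4 control mAM libraries, at 10.9, 9.92, 7.12 and 9.92 CPM in Cre+ mAMs and at 1.16, 0.673 and 0.972 CPM in Cre+ ImmAMs. Every ImmAM library was under every mAM library. The log2 fold change of Cre+ ImmAMs against control mAMs was −3.70 (SE 0.239 and p-adj 5.45e-08 by limma), and against Cre+ mAMs −3.33 (SE 0.256 and p-adj 5.19e-07 by limma). *Bard1*, which forms a ubiquitin ligase with BRCA1, was at 4.74, 5.17, 5.84 and 6.11 CPM in control mAMs, 4.78, 4.65, 4.96 and 3.55 CPM in Cre+ mAMs and 0.447, 0.673 and 1.02 CPM in Cre+ ImmAMs. It was again lower in each ImmAM library, by a log2 fold change of −3.01 (SE 0.280 and p-adj 1.65e-06 by limma) against control mAMs.

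*Rad51ap1*, whose product helps the recombinase pair the broken strand with its template, was at 5.33 to 7.08 CPM over the control mAMs, 5.12 to 6.81 CPM over the 4 Cre+ mAM libraries and 0.686, 0.348 and 0.341 CPM in Cre+ ImmAMs (log2 fold change −3.82 against control mAMs with SE 0.284 and p-adj 2.01e-07 by limma). *Rad54b* encodes a DNA translocase of the same step and had the largest log2 fold change of the 51 genes, −4.85 (SE 0.658 and p-adj 5.04e-05 by limma). It rested on few reads, with 137, 81, 129 and 80 in the control mAM libraries and 0, 7 and 4 in the ImmAM libraries, and its fold change depends on the 0.5 reads added to each count in the table's values. Of its exon bases, 35.8% are shared with another gene, *Fsbp*, on the same strand. Its paralogue *Rad54l*, from a place of its own on chromosome 4 (116094264 to 116123690), stood at 8.15, 8.14, 10.04 and 10.98 CPM in control mAMs and 1.52, 1.88 and 0.709 CPM in Cre+ ImmAMs (log2 fold change −2.87 with SE 0.289 and p-adj 3.39e-06 by limma). The paralogues were low in the same libraries. *Exo1*, the nuclease that lengthens the resected end and also serves mismatch repair, was at 2.84 to 3.51 CPM in control mAMs and 0.924, 0.441 and 1.02 CPM in Cre+ ImmAMs (log2 fold change −2.05 with SE 0.346 and p-adj 3.08e-04 by limma).

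The other homologous recombination genes were lower by less or did not pass the test. *Brca2* was at 14.3, 11.3, 15.4 and 12.7 CPM in control mAMs, 12.8, 11.9, 7.45 and 8.64 CPM in Cre+ mAMs and 8.67, 7.91 and 7.59 CPM in Cre+ ImmAMs. Its ImmAM libraries were all below the control mAMs but not below the Cre+ mAMs (log2 fold change −0.73 with SE 0.186 and p-adj 0.00574 by limma against control mAMs, and −0.38, limma p-adj = 0.156 against Cre+ mAMs). Its partner *Palb2* gave −0.97 (SE 0.194 and p-adj 0.00110 by limma) against control mAMs, and the helicase gene *Blm* −0.61 (SE 0.187 and p-adj 0.0162 by limma). *Xrcc2* and *Xrcc3*, 2 paralogues of the recombinase, were not called. *Xrcc3* was at 9.15, 6.57, 7.71 and 12.4 CPM in control mAMs and 9.93, 11.2 and 8.27 CPM in Cre+ ImmAMs. Against Cre+ mAMs, 7 of the 11 homologous recombination genes were called lower, the 2 fewer being *Brca2* and *Blm*.

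Of the 8 Fanconi genes, 5 were lower in Cre+ ImmAMs than in control mAMs, and 3 of these by more than 4-fold. *Fancd2* and *Fanci*, whose products clamp together on DNA at a stalled fork, both fell. *Fancd2* was at 8.07, 7.30, 7.41 and 8.57 CPM in control mAMs, 5.52, 7.88, 6.57 and 6.71 CPM in Cre+ mAMs and 1.16, 2.11 and 1.23 CPM in Cre+ ImmAMs (log2 fold change −2.43 with SE 0.233 and p-adj 2.13e-06 by limma against control mAMs). *Fanci* was at 4.84 to 7.83, 4.07 to 7.36 and 1.18 to 1.6 CPM (log2 fold change −2.11 with SE 0.266 and p-adj 2.62e-05 by limma). *Brip1*, the helicase bound by BRCA1, was at 8.76, 8.06, 10.8 and 6.36 CPM in control mAMs and 0.745, 1.79 and 1.76 CPM in Cre+ ImmAMs (log2 fold change −2.65 with SE 0.321 and p-adj 1.89e-05 by limma). Genes of the core complex that ubiquitinates this clamp changed less. *Fanca* gave −0.62 (SE 0.200 and p-adj 0.0206 by limma) and *Fancg* −0.51 (SE 0.170 and p-adj 0.0253 by limma), while *Fancb* and *Fancl*, the ligase subunit, did not pass (−0.44 and −0.30). *Fancm*, the fork remodeller that anchors the complex, was at 6.62 to 10.9 CPM in control mAMs and 7.54 to 8.32 CPM in Cre+ ImmAMs, within the same range.

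**Figure D2:**
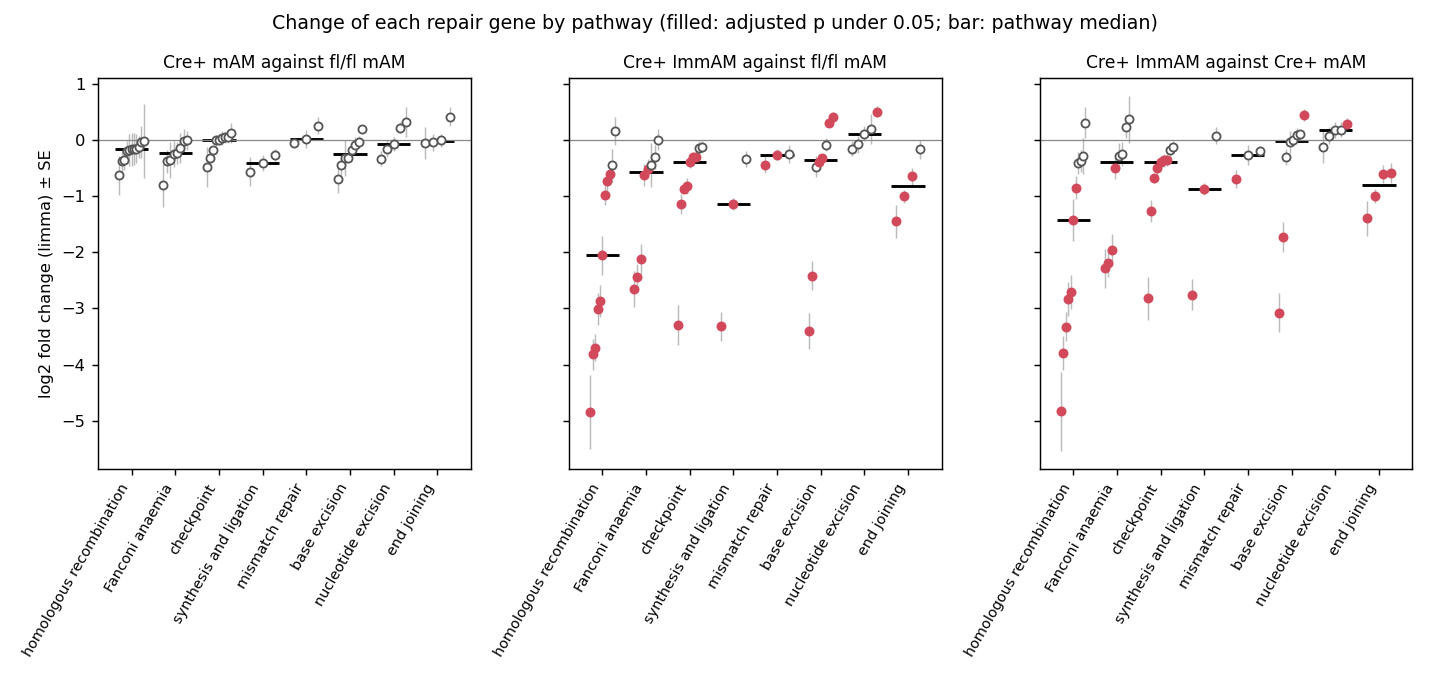
Log2 fold change of each gene (point) with its standard error, by pathway, in the 3 comparisons, filled where the adjusted p was under 0.05, with a bar at the pathway median. No point is filled for Cre+ against control mAMs, and in both ImmAM comparisons the homologous recombination genes reach lowest (to −4.85 and −4.83) while nucleotide excision repair genes lie around 0.

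Break sensing and checkpoint genes, which detect a break or bare single strands and halt the cycle, were called lower in 7 of 9 cases in Cre+ ImmAMs against control mAMs, mostly by little (median −0.40). *Chek1*, the kinase that restrains cells with stalled forks, stood apart from these. It was at 4.16, 3.76, 5.57 and 3.56 CPM in control mAMs, 3.39, 2.61, 3.08 and 3.05 CPM in Cre+ mAMs and 0.566, 0.58 and 0.236 CPM in Cre+ ImmAMs (log2 fold change −3.30 with SE 0.357 and p-adj 6.59e-06 by limma). *Chek2*, its counterpart downstream of double-strand breaks, gave −1.14 (SE 0.182 and p-adj 2.05e-04 by limma). *Rpa1* and *Rpa2*, subunits of the protein that coats single strands, gave −0.87 (SE 0.0769 and p-adj 1.04e-06 by limma) and −0.82 (SE 0.148 and p-adj 5.40e-04 by limma). The 3 genes of the MRN complex, which holds broken ends, were lower by a log2 of 0.31 to 0.40, with fold changes of −0.31 for *Mre11a*, −0.31 for *Nbn* and −0.40 for *Rad50*. *Nbn* lost its call without any of 5 of the 10 libraries (limma p-adj up to 0.147). The master kinases *Atm* and *Atr* did not pass. *Atm* was at 37.6 to 46.3 CPM in control mAMs and 37.0 to 40.03 CPM in Cre+ ImmAMs.

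Among the replication enzymes that also fill and seal repaired gaps, *Pole*, the catalytic subunit of the leading-strand polymerase, was at 17.3, 17.9, 23.0 and 14.1 CPM in control mAMs, 15.2, 14.6, 7.84 and 14.8 CPM in Cre+ mAMs and 2.41, 1.37 and 1.71 CPM in Cre+ ImmAMs (log2 fold change −3.32 with SE 0.262 and p-adj 3.53e-07 by limma). *Lig1*, which seals Okazaki fragments, was at 27.6 to 33.1 CPM and 13.3 to 13.8 CPM (log2 fold change −1.14 with SE 0.103 and p-adj 1.19e-06 by limma). *Pold1*, the catalytic subunit of the other replicative polymerase, was at 22.4 to 35.8 CPM in control mAMs and 20.4 to 24.98 CPM in Cre+ ImmAMs and was not called (log2 fold change −0.34, limma p-adj = 0.0637).

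Mismatch repair genes, which correct replication errors, moved little. *Msh6*, which is part of the pair that reads single mismatches, was at 23.2, 24.99, 25.5 and 24.3 CPM in control mAMs, 24.9, 22.9, 22.7 and 22.1 CPM in Cre+ mAMs and 22.1, 20.2 and 19.0 CPM in Cre+ ImmAMs (log2 fold change −0.26 with SE 0.0926 and p-adj 0.0330 by limma against control mAMs). *Pms2*, the nicking subunit, was at 9.13, 9.79, 11.3 and 9.70, at 13.3, 10.9, 11.6 and 8.27, and at 6.65, 9.02 and 6.59 CPM in the same order (log2 fold change −0.44 with SE 0.153 and p-adj 0.0310 by limma). These 2 calls were each lost under 8 of 25 alternative settings, with adjusted p (limma, or DESeq2 where it was used) up to 0.126 and 0.111. *Msh3*, which reads small loops, was not called, at 13.5, 10.3, 10.3 and 9.99 CPM in control mAMs, 10.8, 11.7, 10.7 and 9.60 CPM in Cre+ mAMs and 9.21, 7.44 and 11.3 CPM in Cre+ ImmAMs (log2 fold change −0.25 with SE 0.163 and p-adj 0.230 by limma).

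Base excision and single-strand break repair genes went both ways, with 4 of 8 lower and 2 higher in Cre+ ImmAMs than in control mAMs. Of its DNA glycosylases, *Neil3*, which acts at replication forks, was at 6.43, 8.18, 7.26 and 6.06 CPM in control mAMs, 6.16, 9.11, 3.02 and 5.75 CPM in Cre+ mAMs and 0.686, 0.58 and 0.709 CPM in Cre+ ImmAMs (log2 fold change −3.40 with SE 0.322 and p-adj 1.92e-06 by limma). *Ung*, which removes uracil, was at 6.62, 6.98, 8.84 and 8.08, at 4.36, 4.91, 4.85 and 6.76, and at 0.924, 1.88 and 1.65 CPM (log2 fold change −2.41 with SE 0.250 and p-adj 4.47e-06 by limma). *Ogg1*, the glycosylase for oxidised guanine, was not called (log2 fold change −0.48, limma p-adj = 0.0534). The enzymes that act on the resulting nick differed from these. *Parp1*, the break sensor that marks nicks with poly(ADP-ribose), was higher in each ImmAM library. It was at 68.9, 65.6, 73.8 and 66.8 CPM in control mAMs, 70.05, 55.3, 77.5 and 77.5 CPM in Cre+ mAMs and 90.4, 94.3 and 87.4 CPM in Cre+ ImmAMs. Its log2 fold change was 0.40 (SE 0.101 and p-adj 0.00539 by limma) against control mAMs and 0.44 (SE 0.108 and p-adj 0.00618 by limma) against Cre+ mAMs. *Parp2* was at 34.8, 34.8, 34.6 and 34.3 CPM in control mAMs, 39.6, 39.7, 39.8 and 33.5 CPM in Cre+ mAMs and 39.1, 43.6 and 45.7 CPM in Cre+ ImmAMs (log2 fold change 0.30 with SE 0.0764 and p-adj 0.00538 by limma against control mAMs), and was not called against Cre+ mAMs (limma p-adj = 0.344). *Lig3* gave −0.38 (SE 0.126 and p-adj 0.0231 by limma), and its scaffold *Xrcc1* was at 25.4 to 31.8 CPM in control mAMs and 23.8 to 30.8 CPM in Cre+ ImmAMs. *Apex1*, also called lower, gave −0.33 (SE 0.0851 and p-adj 0.00634 by limma) against control mAMs and −0.0086 (limma p-adj = 0.954) against Cre+ mAMs.

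No nucleotide excision repair gene was called lower. *Xpc*, the sensor of distorted helices, was higher in Cre+ ImmAMs. It was at 33.5, 36.1, 32.3 and 37.0 CPM in control mAMs, 44.0, 38.9, 38.1 and 38.9 CPM in Cre+ mAMs and 51.6, 53.9 and 42.5 CPM in Cre+ ImmAMs. The log2 fold change against control mAMs was 0.50 (SE 0.0992 and p-adj 0.00105 by limma). Against Cre+ mAMs it was 0.29 (SE 0.106 and p-adj 0.0494 by limma), a call lost under 13 of 25 alternative settings, with limma p-adj up to 0.183. The other 4 genes were called in none of the 3 comparisons. *Ercc1*, whose product is part of the incision nuclease, was at 10.1, 10.2, 10.3 and 10.6 CPM in control mAMs, 8.47, 10.3, 10.7 and 11.3 CPM in Cre+ mAMs and 10.3, 10.97 and 12.1 CPM in Cre+ ImmAMs (log2 fold change 0.11 with SE 0.128 and p-adj 0.499 by limma). *Ercc2*, a helicase that also serves transcription, was at 24.7, 28.05, 26.3 and 36.7, at 23.9, 21.4, 22.7 and 31.2, and at 25.5, 28.9 and 23.0 CPM (log2 fold change −0.15 with SE 0.133 and p-adj 0.365 by limma). *Xpa* ranged from 8.05 to 11.6 CPM over all 11 libraries (log2 fold change −0.08 with SE 0.150 and p-adj 0.691 by limma). *Ddb2*, which finds ultraviolet damage, ranged from 3.73 to 8.56 CPM (log2 fold change 0.20 with SE 0.264 and p-adj 0.562 by limma).

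Of the 4 end-joining genes among the 51, 3 were lower against control mAMs and all 4 against Cre+ mAMs, with a median of −0.83 and −0.80. Of 10 other end-joining genes measured, 2 were lower against control mAMs (median −0.11) and 1 against Cre+ mAMs (median −0.05), with 0 higher. *Xrcc5*, the larger Ku subunit, was at 53.8, 52.9, 59.7 and 40.6 CPM in control mAMs, 51.1, 53.0, 48.8 and 54.5 CPM in Cre+ mAMs and 26.4, 23.4 and 27.2 CPM in Cre+ ImmAMs (log2 fold change −1.0 with SE 0.117 and p-adj 1.33e-05 by limma). *Xrcc6*, the smaller, was at 19.3, 20.5, 23.1 and 19.7, at 19.0, 22.6, 18.6 and 23.3, and at 15.8, 14.5 and 9.90 CPM (log2 fold change −0.65 with SE 0.154 and p-adj 0.00372 by limma). All ImmAM libraries lay below all mAM libraries for each subunit. *Polq*, the polymerase of the alternative, microhomology-mediated route, was at 3.47, 3.88, 4.97 and 3.36, at 3.39, 4.69, 3.24 and 2.54, and at 2.12, 1.04 and 1.29 CPM (log2 fold change −1.45 with SE 0.289 and p-adj 0.00110 by limma). *Lig4*, the ligase that closes the joint, was at 7.81, 6.49, 9.21 and 6.06 CPM in control mAMs, 9.99, 10.2, 9.06 and 6.90 CPM in Cre+ mAMs and 6.23, 6.80 and 6.49 CPM in Cre+ ImmAMs. It was called only against Cre+ mAMs (log2 fold change −0.58 with SE 0.176 and p-adj 0.0189 by limma), and not with the fourth Cre+ mAM library included.

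**Figure D3:**
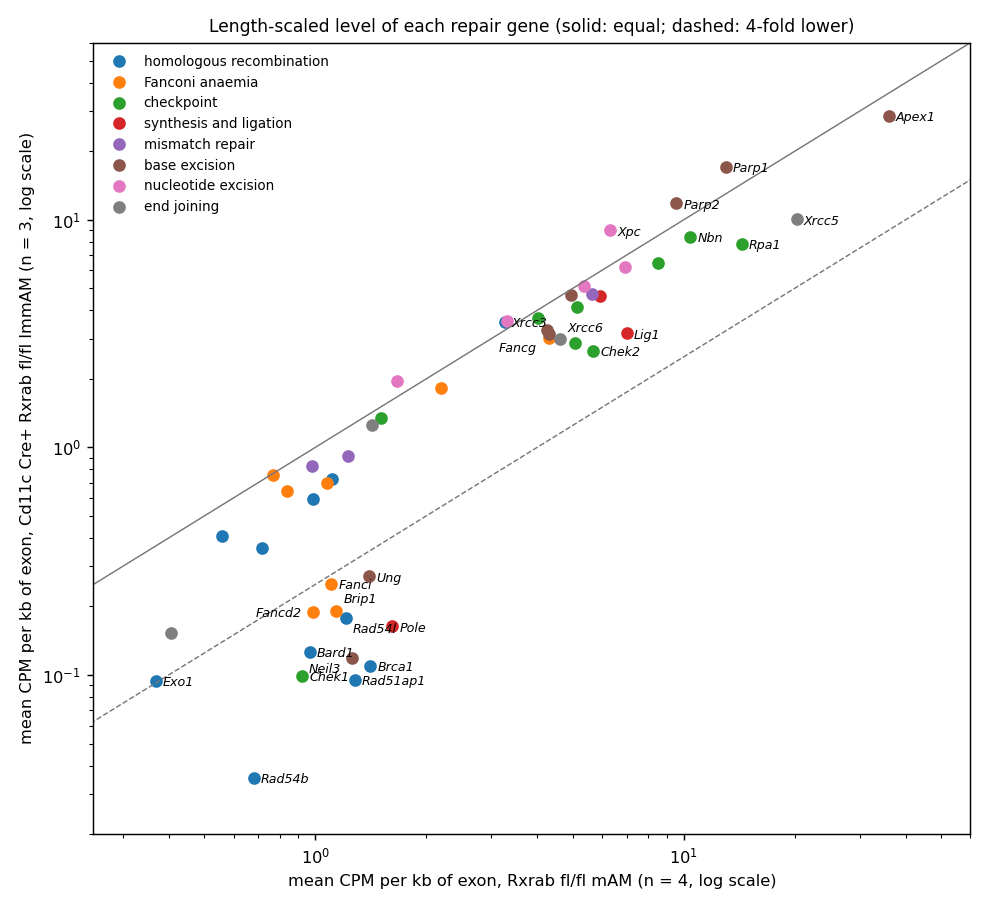
Mean level of each gene per kb of merged exon in control mAMs (x axis, n = 4) and Cre+ ImmAMs (y axis, n = 3), both on log axes, coloured by pathway, with a solid line at equal levels and a dashed line at 4-fold lower. The 13 genes with a log2 fold change below −2 form a group near and under the dashed line, all at 1.62 CPM per kb or less in control mAMs, while the genes above 2 CPM per kb lie above the dashed line.

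To compare genes with each other, the mean CPM of each was divided by the length of its merged exons. Per kb, *Apex1*, the main abasic-site nuclease, was the most abundant of the 51 genes in control mAMs (36.0 CPM per kb) and in Cre+ ImmAMs (28.6 CPM per kb). In control mAMs it was followed by *Xrcc5* (20.3), *Rpa1* (14.4) and *Parp1* (12.99 CPM per kb), and in Cre+ ImmAMs by *Parp1* (17.1), *Parp2* (11.8) and *Xrcc5* (10.04 CPM per kb). The 19 homologous recombination and Fanconi genes already stood low in control mAMs, with a median of 1.08 CPM per kb against 4.46 for the 20 mismatch, excision and end-joining genes, and in Cre+ ImmAMs the medians were 0.362 and 3.43 CPM per kb. The 13 genes more than 4-fold lower had 0.369 to 1.62 CPM per kb in control mAMs and 0.0354 to 0.272 in Cre+ ImmAMs. Of the other 38 genes, 13 were also under 2 CPM per kb in control mAMs, and of these 6 were called lower by less than 4-fold and 7 were not called. The level in control mAMs enters both of these measures, and they are given as a description.

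The same contrast was read within each library as the mean log2 CPM of the 19 genes minus that of the 20. This gap was −1.27 ± 0.0743 in control mAMs (SD, n = 4), −1.45 ± 0.120 in Cre+ mAMs (SD, n = 3) and −2.45 ± 0.0386 in Cre+ ImmAMs (SD, n = 3), and ranged from −1.37 to −1.19, −1.55 to −1.31 and −2.50 to −2.43 over all libraries. It was thus wider in each ImmAM library than in any mAM library, by 1.18 on the log2 scale against control mAMs and 1.01 against Cre+ mAMs, beside a pooled SD of 0.0830 within groups. The difference was −1.01 and −0.82 with *Rad54b* left out, a choice made after seeing the data. The gap also takes in the genes that passed the filter through the mAMs, and is a description.

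Expression of S phase genes is known to vary with the share of dividing cells. Cell cycle lists were therefore read in the same libraries. The 22 S phase genes were all called lower in Cre+ ImmAMs than in control mAMs (median log2 fold change −1.51), as were the 24 G2 and mitosis genes (median −3.52). Summed over the list, S phase genes were at 768 to 921 CPM in control mAMs, 583 to 738 CPM in Cre+ mAMs and 305 to 335 CPM in Cre+ ImmAMs, and G2 and mitosis genes at 731 to 887, 648 to 786 and 93.4 to 98.2 CPM. The summed homologous recombination and Fanconi genes, at 136 to 160.1, 112 to 142 and 67.1 to 75.3 CPM, amounted to 0.174 ± 0.0137 (SD, n = 4), 0.194 ± 0.00323 (SD, n = 3) and 0.223 ± 0.0233 (SD, n = 3) of the S phase sum. The ImmAM ratios (0.200 to 0.247) lay above those of every mAM library, but this held for the Fanconi genes and not for homologous recombination alone. For the Fanconi sum the ratio was 0.0745 to 0.0928 in the mAM libraries and 0.109 to 0.132 in Cre+ ImmAMs, and for homologous recombination 0.0806 to 0.112 and 0.091 to 0.115, with overlap. The median log2 fold change against control mAMs was −2.05 for homologous recombination and −0.57 for Fanconi genes, on either side of the −1.51 of the S phase genes. For the 20 mismatch, excision and end-joining genes the ratio to the S phase sum was 0.542 ± 0.0295, 0.677 ± 0.0787 and 1.31 ± 0.10. The part of the cell cycle in the fall of the repair genes was not tested, and sums lean on the more abundant genes of each list.

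**Figure D4:**
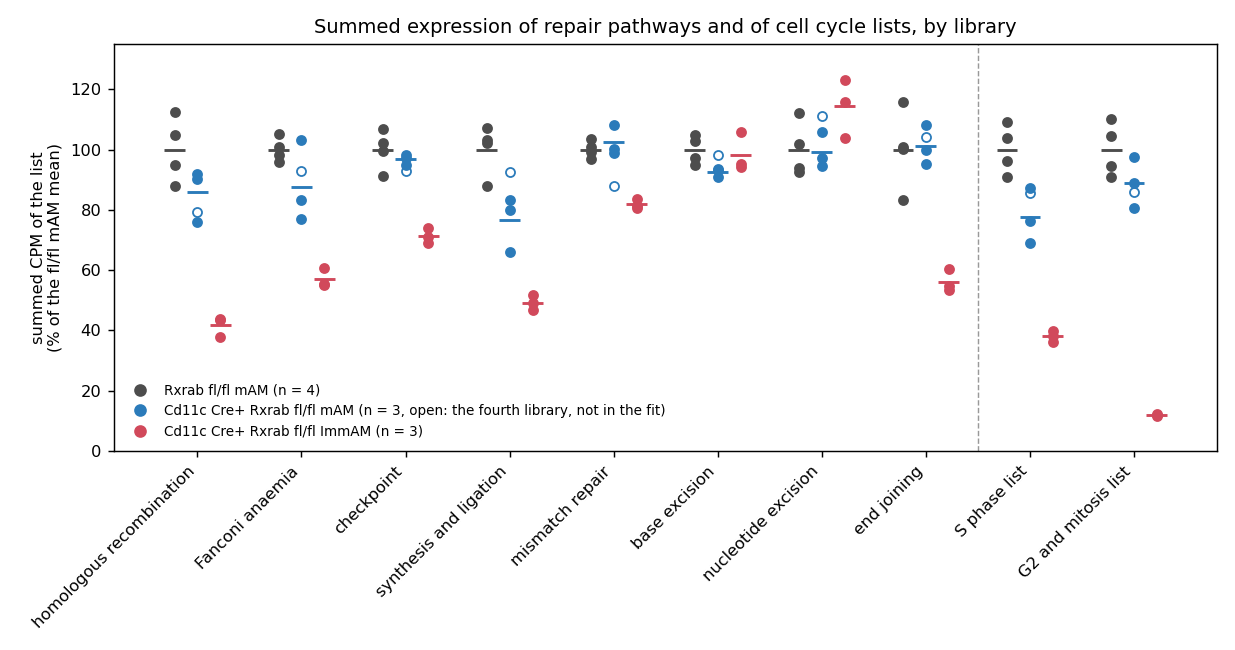
Summed CPM of each repair pathway and, right of the dashed line, of the S phase and G2 and mitosis lists in each library, as a percentage of the control mAM mean (points are libraries, bars group means, and the open circle the fourth Cre+ mAM library). In Cre+ ImmAMs homologous recombination stood at 41.7%, Fanconi genes at 57.1%, end joining at 56.2%, base excision at 98.3% and nucleotide excision repair at 114%, beside 38.01% for the S phase list and 11.9% for the G2 and mitosis list.

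Against Cre+ mAMs, which share the genotype with the ImmAMs and differ from them by the sorted population, 27 of the 51 genes were lower and 2 higher (*Parp1* and *Xpc*). Of all genes tested 20.2% were called lower, 17.7% higher and 37.9% in either direction. Both ImmAM comparisons use the same ImmAM libraries. Of the 19 homologous recombination and Fanconi genes 11 were lower (median −0.85), and of the 20 mismatch, excision and end-joining genes 7 were lower and 2 higher (median −0.17), against a median of −0.0053 over all genes. The largest log2 fold changes were those of *Rad54b* (−4.83 with SE 0.703 and p-adj 1.35e-04 by limma), *Rad51ap1* (−3.79 with SE 0.304 and p-adj 7.17e-07 by limma) and *Brca1*, given above. They were followed by *Neil3* (−3.08 with SE 0.345 and p-adj 1.44e-05 by limma), *Bard1* (−2.83 with SE 0.300 and p-adj 8.94e-06 by limma), *Chek1* (−2.82 with SE 0.381 and p-adj 7.36e-05 by limma) and *Pole* (−2.76 with SE 0.280 and p-adj 6.32e-06 by limma). *Rad54l* gave −2.71, *Brip1* −2.29 and *Fancd2* −2.19, also called. With 3 libraries a group an exact permutation test cannot go below 0.10 for any of them.

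Between Cre+ and control mAMs, 0 of the 51 genes were called by limma or by edgeR. Of all genes tested limma called 4.84% (2.59% lower and 2.25% higher) and edgeR 4.39%. Of the 51, 11 had an unadjusted p under 0.05, as did 23.6% of all genes tested. DESeq2 called 3 (*Apex1*, *Ung* and *Pold1*, all lower), beside 11.3% of all genes it tested. *Apex1* came nearest. It was at 47.3, 52.0, 49.4 and 56.2 CPM in control mAMs and 38.7, 44.2, 40.1 and 47.0 CPM in Cre+ mAMs, so the groups did not overlap with or without the fourth library. Its log2 fold change was −0.32 (SE 0.0851 and p-adj 0.0504 by limma). The two-sided exact permutation p was 0.0286, the smallest that 4 against 3 libraries allow. With the fourth library the log2 fold change was −0.27 (limma p-adj = 0.132), and over 25 alternatives p-adj (limma, edgeR or DESeq2) ran from 0.0153 to 0.160, with 7 of them under 0.05. Of its exon bases, 61.7% lie opposite exons of *Pip4p1* on the other strand, and whether the counting used strand is not given in the sources used here.

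All 19 homologous recombination and Fanconi genes had a log2 fold change under 0 in Cre+ against control mAMs, with a median of −0.18. However, none passed the test, and none had an unadjusted p under 0.05 (limma). Such an unadjusted p was met by 7 of the 20 other genes, in either direction, and by 23.6% of all genes tested. Of the 20 other genes 14 were under 0 (median −0.06), and of all genes tested 50.3%. The count of 19 held with the fourth library included and fell to between 16 and 18 without any one of the Cre+ or control mAM libraries, the lowest being 16 without Cre+ mAM replicate 1 or 3. It was also 18 with edgeR, DESeq2, limma-voom, quantile normalisation or no TMM scaling, and 17 with array weights or the replicate block. The largest falls among the 19 were those of *Fancb* (−0.81, limma p-adj = 0.228) and *Exo1* (−0.63, limma p-adj = 0.292). *Fancb* was at 1.94 to 2.98 CPM in control mAMs and 1.5, 2.15, 0.859 and 1.44 CPM in Cre+ mAMs. Of the S phase genes, 4 of 22 were called lower in the same comparison (median −0.37). By flow cytometry, however, the study found more proliferation (BrdU label and Ki-67 staining) in Cre+ mAMs than in control mAMs. The S phase RNA is therefore not read as a rate of division here. *Ung* (−0.69, limma p-adj = 0.119) and *Lig1* (−0.26, limma p-adj = 0.144) lay below all control mAM libraries in replicates 1 to 3, while the fourth Cre+ mAM library was within their range. In the other direction *Parp2* (0.20, limma p-adj = 0.138) was above all control mAM libraries in replicates 1 to 3 and below them in the fourth, at 33.5 CPM.

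Other repair genes, listed from the same pathways, were measured for 101 names. In Cre+ ImmAMs against control mAMs 40 of them were lower and 6 higher (median −0.22). The 3 with the largest fall were *Fignl1*, a AAA ATPase of recombination (9.98 ± 0.924 CPM in control mAMs and 1.11 ± 0.808 CPM in Cre+ ImmAMs, log2 fold change −3.56), *Clspn*, the adaptor through which CHK1 is switched on (16.6 ± 2.03 and 1.92 ± 0.496 CPM, −3.14), and *Eme1*, a partner of the junction nuclease MUS81 (2.75 ± 0.465 and 0.512 ± 0.264 CPM, −2.53). Those that rose most were *Ercc6*, which starts transcription-coupled excision repair (29.98 ± 2.01 and 66.3 ± 4.59 CPM, log2 fold change 1.15), the glycosylase gene *Neil2* (4.54 ± 1.08 and 8.40 ± 0.800 CPM, 0.91) and *Nthl1*, a glycosylase for oxidised pyrimidines (2.84 ± 0.690 and 4.80 ± 0.737 CPM, 0.77). The 3 lowest belong to recombination and checkpoint signalling and the 3 highest to excision repair. By pathway against control mAMs, 11 of 22 homologous recombination genes were lower and 1 higher (median −0.37). Of 9 Fanconi genes 4 were lower and 0 higher (median −0.49), and of 14 base excision genes 5 were lower and 3 higher (median −0.27). Nucleotide excision had 4 of 16 lower and 2 higher (median −0.13), and end joining 2 of 10 lower and 0 higher (median −0.11). Of all genes tested 25.3% were lower and 22.8% higher. Against Cre+ mAMs 34 of the 101 were lower and 3 higher, led by *Fignl1* (−3.01), *Clspn* (−2.82) and *Mcm8* (−2.14) and by *Gtf2h3* (0.87), *Ercc6* (0.82) and *Neil2* (0.58). Between Cre+ and control mAMs 0 of the 101 were called by limma, and 18 had an unadjusted p under 0.05, beside the 23.6% of all genes given above.

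Many S phase genes carry a binding word of the E2F factors close to their start, so the promoters of the 51 genes were read for it. Promoter windows of RefSeq on GRCm38.p6, from 250 bases before to 50 after the start, were held for 42 of the 51 genes. An E2F word (TTTCCCGC, TTTCGCGC, TTTGCCGC or TTTGGCGC on either strand) was found in 9 of these 42 genes (21.4%), in 4.81% of the 9423 genes tested that had a window and in 2.60% of all 27025 genes with one. Of the 13 genes more than 4-fold lower, 9 had a window, and 1 of these held the word (11.1%), as did 8 of the 33 others read (24.2%). The remaining 4 of the 13 were not read, and 9 windows are too few to compare these shares. Among all genes tested with a window, the E2F word was in 6.69% of those called lower and 8.28% of those more than 4-fold lower. It was in 3 of 15 homologous recombination and Fanconi genes (20%) and in 3 of 18 mismatch, excision and end-joining genes (16.7%). The 6-base words TTTGAA and TTCGAA of the cell cycle homology region were in 11.9% of the 42 genes and 16.9% of the genes tested, and CCAAT in 57.1% and 43.6%. These 6-base words were in 18.7% of the genes tested that were called lower and 29.3% of those more than 4-fold lower. A single AGGTCA half-site, the word that nuclear receptors such as RXR read, was in 5 of the 42 genes (11.9%) and in 14.8% of the genes tested, and 2 such half-sites in one direction with 1 base between them were in 0 of the 42 and in 0.0424% of the genes tested. A match is a run of letters, not a shown binding site.

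The promoters below are shown because they set the word beside the measured fall, each 5′ to 3′ on the strand of its gene with E2F words in capitals. *Msh3* and *Neil3* were picked for contrast and not by a rule. Of the genes not shown that hold the word, *Chek2*, *Lig1*, *Msh6* and *Xrcc6* were called lower and *Pold1* was not. *Bard1*, chr1:71102923-71103222 (minus strand), holds it and fell by a log2 of more than 2, while *Brca2*, chr5:150522371-150522670 (plus strand), and *Fancg*, chr4:43010252-43010551 (minus strand), hold it and fell by less. *Msh3*, chr13:92354954-92355253 (minus strand), holds 2 overlapping words and was not called, and *Neil3*, chr8:53639016-53639315 (minus strand), holds none of the 4 words in this window and was among the lowest.
Bard1: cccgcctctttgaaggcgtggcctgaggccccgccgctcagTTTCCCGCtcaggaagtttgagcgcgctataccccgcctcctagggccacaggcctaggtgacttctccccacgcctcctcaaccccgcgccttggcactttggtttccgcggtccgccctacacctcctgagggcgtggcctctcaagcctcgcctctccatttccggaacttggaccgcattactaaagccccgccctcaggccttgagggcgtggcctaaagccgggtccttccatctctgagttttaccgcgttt
Brca2: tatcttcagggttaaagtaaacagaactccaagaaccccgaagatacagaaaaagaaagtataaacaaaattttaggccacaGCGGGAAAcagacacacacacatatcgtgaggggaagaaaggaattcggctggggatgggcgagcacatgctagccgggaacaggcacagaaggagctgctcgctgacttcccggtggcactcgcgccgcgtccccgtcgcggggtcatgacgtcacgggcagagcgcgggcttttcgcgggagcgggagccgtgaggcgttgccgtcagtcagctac
Fancg: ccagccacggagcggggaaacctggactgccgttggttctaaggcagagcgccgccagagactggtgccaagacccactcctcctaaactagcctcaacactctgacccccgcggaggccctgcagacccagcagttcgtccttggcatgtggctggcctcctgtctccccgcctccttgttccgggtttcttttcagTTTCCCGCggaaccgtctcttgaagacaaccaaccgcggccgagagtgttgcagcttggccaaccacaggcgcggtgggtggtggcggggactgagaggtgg
Msh3: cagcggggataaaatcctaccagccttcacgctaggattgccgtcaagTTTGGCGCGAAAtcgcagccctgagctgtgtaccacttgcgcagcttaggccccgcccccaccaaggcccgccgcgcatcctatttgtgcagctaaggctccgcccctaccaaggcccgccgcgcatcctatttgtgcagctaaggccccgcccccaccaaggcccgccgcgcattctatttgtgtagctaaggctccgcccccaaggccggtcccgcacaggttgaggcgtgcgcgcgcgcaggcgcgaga
Neil3: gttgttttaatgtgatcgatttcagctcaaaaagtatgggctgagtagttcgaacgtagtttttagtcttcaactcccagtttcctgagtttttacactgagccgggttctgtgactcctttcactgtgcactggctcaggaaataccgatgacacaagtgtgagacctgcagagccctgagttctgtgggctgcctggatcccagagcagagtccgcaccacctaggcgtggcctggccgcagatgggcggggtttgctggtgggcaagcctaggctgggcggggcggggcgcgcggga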

How the data were processed

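RNA-seq libraries were made by the authors from 40000 sorted cells each, with a directional kit and single-end reads of 60 bases, which were trimmed with Cutadapt and counted on the GRCm38 transcriptome with RSEM 1.3.1. The deposited table holds TMM-normalised CPM from limma, filtered by the authors on at least 1 CPM in 3 libraries, with 0.5 reads added to each count. Each value divided by its library's step came out as a whole number of reads plus this 0.5 (100% within 0.01), which gave the depth per library and the counts for edgeR 4.0.16 and DESeq2 1.42.0.

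Log2 of the deposited CPM was fitted with limma 3.58.1 (R 4.3.3) with a variance trend and a mean per group, on 10 libraries and the 12889 genes with at least 1 CPM in 3 of these. P-values were adjusted by Benjamini-Hochberg over all genes tested, and a call is an adjusted p under 0.05. All 51 members passed the filter, 10 of them with fewer than 3 ImmAM libraries at 1 CPM. SE and fold changes are on the log2 CPM scale. The limma step was first run on simulated counts with known changes. Two-sided exact permutation tests compared single genes. Libraries of a group are taken as separate mice, as in the study's legends. Whether a Cre+ mAM and a Cre+ ImmAM library came from the same mouse is not stated there, and the fits treat them as separate. Where libraries are not separate mice, p-values measure only the spread between libraries. Gene positions and exon lengths came from GENCODE vM21 (GRCm38).

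Named in full were the members with the largest called changes and no overlap between groups, up to 10 per comparison, those called higher, and all mismatch, nucleotide excision and end-joining genes, and of the other repair genes the 3 largest rises and falls. Members and lists were chosen with earlier results of these data known. Alternatives covered the libraries, pseudocount, filter, scaling, variance model, tool, replicate block, a fold of at least 1.5 and each library left out. A listed interstitial macrophage marker was left out of its sum and is not reported here.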

Additional observations from a re-analysis of the deposited data

Results flagged for a closer look

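Of 104 groups of 4 libraries tested for a single value far from the rest (Dixon's test at 95%, which chance alone passes in about 1 group in 20), 9 passed. Among control mAMs, *Fanca* was high in replicate 4 at 12.2 CPM (next highest 8.91), *Fancm* high in replicate 3 at 10.9 CPM (next 7.28), *Msh3* high in replicate 1 at 13.5 CPM (next 10.3) and *Nbn* low in replicate 4 at 23.0 CPM (next lowest 27.3). Among Cre+ mAMs, *Fancg* was high in replicate 2 at 20.5 CPM (next highest 15.4), *Xpc* high in replicate 1 at 44.0 CPM (next 38.9) and *Pole* low in replicate 3 at 7.84 CPM (next lowest 14.6). The library left out of the fits, Cre+ mAM replicate 4, stood apart for *Pold1*, high at 27.1 CPM (next highest 21.6), and *Parp2*, low at 33.5 CPM (next lowest 39.6).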

How the results depend on the processing

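The counts of genes called in the ImmAM comparisons stayed within 1.5 times the reported ones under every alternative run, from 24 to 36 against control mAMs and from 21 to 29 against Cre+ mAMs. The lower ends came from asking also for a fold of at least 1.5, which none of the genes called higher met. No called gene changed direction. Of the 35 genes called against control mAMs, 22 kept their call under every one of the 25 alternatives in which they were tested, as did 21 of the 29 called against Cre+ mAMs. The filter of 5 CPM left some low genes untested.

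Between Cre+ and control mAMs the count of 0 became 1 (*Apex1*) with a pseudocount of 1 CPM, a filter of 5 CPM, median-ratio scaling or array weights, and 3 with DESeq2. Without one library it ranged from 0 to 2, with *Apex1* and *Pold1* called without control mAM replicate 1 and *Apex1* without Cre+ mAM replicate 2. The cause was not tested. Depth limits the lowest genes most, with 0 to 7 reads for *Rad54b* in the ImmAM libraries.

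The widening of the gap between the 19 and the 20 genes in ImmAMs kept its direction. Against control mAMs and Cre+ mAMs in turn it was −0.75 and −0.61 with a pseudocount of 1 CPM, which shrinks low genes, −1.32 and −1.13 with quantile normalisation, −1.04 and −0.91 with repair synthesis genes added to excision repair, −0.91 and −0.78 with checkpoint genes added to homologous recombination, and −1.01 and −0.82 without *Rad54b*, against the reported −1.18 and −1.01. With *Exo1* moved to mismatch repair it was −1.09 against control mAMs.

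Calls against control mAMs lost without one library were those of *Blm* (ImmAM replicate 4), *Fanca* (control 4, ImmAM 2), *Fancg* (control 4, ImmAM 3, ImmAM 4), *Lig3* (control 3, ImmAM 2, ImmAM 4), *Mre11a* (ImmAM 2), *Msh6* (control 2, control 3, ImmAM 3, ImmAM 4), *Nbn* (control 1, 2 and 3, ImmAM 2 and 3) and *Pms2* (control 2, control 3, ImmAM 2, ImmAM 4), with limma p-adj up to 0.147. Against Cre+ mAMs they were those of *Fancg* (control 1, control 2, Cre+ mAM 2, ImmAM 3, ImmAM 4), *Lig4* (Cre+ mAM 1, Cre+ mAM 2, ImmAM 2), *Mre11a* (ImmAM 2), *Nbn* (Cre+ mAM 1 and 2, ImmAM 2 and 3), *Rad50* (Cre+ mAM 3), *Rpa2* (Cre+ mAM 2, ImmAM 2, ImmAM 4) and *Xpc* (control 1, 2 and 3, Cre+ mAM 2 and 3, ImmAM 2 and 3), up to 0.183. *Xpa*, not called, ranged from −0.21 to 0.034 on the log2 scale, the higher value without ImmAM replicate 4.

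Same-numbered libraries did not deviate together (correlations of −0.149 to 0.272 over 10 pairs, 2 of them over 0.1), so the numbers were not taken to pair the mice. Only Cre+ mAMs and Cre+ ImmAMs could share a mouse. Their same-numbered pairs gave 0.0782, −0.047 and −0.0194, too few values to exclude pairing. With the replicate block 32 genes were called against control mAMs, 25 against Cre+ mAMs and 0 between the mAM groups.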
